A study of Homo sapiens with 28 samples.

Results

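Of the acyl-CoA synthetase families, 10 genes were followed by polyA RNA-seq in LNCaP cells, a human prostate cancer line: *ACSL1*, *ACSL3*, *ACSL4*, *ACSL5*, *ACSL6*, *ACSS1*, *ACSS2*, *ACSS3*, *ACSM1* and *ACSM3*. They were chosen by name, with earlier results of these data known, and are 10 of the 26443 genes that have a value in the deposited tables. The 28 libraries fall into 12 groups in 2 series. In the knockdown series (8 groups of 2 libraries), cells carried shHOXB13, 1 hairpin against the prostate homeobox gene *HOXB13*, or the control hairpin shCtrl. Each was used with shp300, with shCBP, with both (shp300/CBP), or with neither. The hairpins shp300 and shCBP are 1 sequence each against *EP300* and *CREBBP*, which encode the histone acetyltransferases p300 and CBP. In the CCS1477 series (4 groups of 3 libraries), shHOXB13 or shCtrl cells received 250 nM CCS1477, a p300/CBP inhibitor, or its solvent DMSO for 48 h. All groups thus carry a lentiviral hairpin, each target gene was lowered by a single hairpin sequence, and 1 cell line was used. The comparisons ask what *HOXB13* knockdown does to each gene and whether lowering or inhibiting p300 and CBP changes that.

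Acyl-CoA synthetases join a fatty acid to coenzyme A, with ATP as the energy source. Free fatty acids need this step before they can be built into triglycerides, phospholipids and cholesterol esters or burned in mitochondria. The families are named for the chain they prefer: ACSL for long-chain, ACSM for medium-chain, and ACSS for short-chain acids such as acetate. In prostate cells many genes of lipid synthesis respond to androgen.

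Levels are given in FPKM (fragments scaled to gene length and to all mapped reads), which is per length and so can be compared between genes. Differences are log2 fold changes on the log2(FPKM + 0.1) scale with their standard error (SE) from limma and an adjusted p (Benjamini-Hochberg over all genes tested). To pass, a gene had to change 1.5-fold or more with an adjusted p below 0.05, and only genes that passed are said to have risen or fallen. The p-values measure the spread between biological duplicates or triplicates of 1 cell line.

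The libraries held 7458934 to 16338528 mapped reads. Of these, 52.7% to 74.3% lay in genes in the knockdown series and 78.4% to 84.0% in the CCS1477 series. In the knockdown series that share differed between groups. It was 74.3% and 72.2% in shCtrl, and 68.8% and 66.3% in shHOXB13. With shp300/CBP added to shHOXB13 it was 61.6% and 52.7%, and its part in the results was not tested. *HOXB13* had 11.2 and 11.4 FPKM in shHOXB13 cells, against 87.6 and 85.4 FPKM in shCtrl cells, and 28.3 to 32.2 FPKM in shHOXB13 DMSO cells, against 139.8 to 147 FPKM in shCtrl DMSO cells. *EP300* had 4.17 and 4.47 FPKM in shHOXB13+shp300/CBP and 3.16 and 3.39 FPKM in shHOXB13+shp300, against 5.62 and 5.88 FPKM in shHOXB13 alone. *CREBBP* had 3.62 and 4.57 FPKM in shHOXB13+shp300/CBP and 3.33 and 2.96 FPKM in shHOXB13+shCBP, against 5.15 and 4.72 FPKM in shHOXB13 alone. Neither target overlapped with shHOXB13 alone, and with both hairpins each lay higher than with its own hairpin by itself. *EP300* was already lower in shHOXB13 cells, which are the control of those comparisons, than in shCtrl cells (11.5 and 10.5 FPKM), and had 11.05, 9.09 and 9.57 FPKM in shHOXB13 DMSO cells, against 15.2, 19.6 and 19.3 FPKM in shCtrl DMSO cells. The part of these levels in the results was not tested. All 9 luminal prostate markers reached at least 3.53 FPKM in every library, while *PTPRC*, *PECAM1*, *DCN* and *TP63*, defining markers of immune, endothelial, fibroblast and basal cells, stayed at or under 0.0647 FPKM. Other genes of those lists were detected: *COL1A1* reached 17.8 FPKM and *VWF* 2.87 FPKM. The summed level of the 9 luminal markers was 4220 to 4350 FPKM in shHOXB13 cells, against 2310 to 2470 FPKM in shCtrl cells. With shp300/CBP added to shHOXB13 it was 1150 to 1240 FPKM. In the DMSO groups it was 6050 to 7010 FPKM with shHOXB13, against 2980 to 3120 FPKM with shCtrl. In shHOXB13 CCS1477 it was 2330 to 2440 FPKM. Of the 9, *KLK3* reached the highest level, at 501 to 5670 FPKM over all libraries, with *TMPRSS2* next at 85.3 to 655 FPKM. *HOXB13*, also of the 9, was lower in shHOXB13 cells, so the sum does not describe each marker. The summed level of 4 fibroblast markers was 4.42 to 5.31 FPKM in shHOXB13 cells, against 1.16 to 1.62 FPKM in shCtrl cells. It was 6.27 to 18.1 FPKM in shHOXB13+shp300/CBP. That of 3 endothelial markers was 0.489 to 0.646 FPKM in shHOXB13 DMSO cells, against 2.34 to 2.89 FPKM in shCtrl DMSO cells. The 2 libraries of shHOXB13+shp300/CBP were the least alike pair of the knockdown series (r = 0.9553 across 15751 genes, against 0.97 to 0.9817 for the other pairs). Summed over 4 immune markers, nearly all of it *CD68*, the level ran from 13.9 to 40.2 FPKM there, against 9.3 to 12.3 FPKM in shHOXB13 cells. The summed level of 3 basal markers, nearly all of it *KRT14*, was 0.0835 to 0.11 FPKM in shHOXB13 cells, against 3.1 to 3.63 FPKM in shCtrl cells. The part of these markers in the results was not tested. In bulk libraries of 1 cultured line, fewer cells that express a gene and less RNA per cell cannot be told apart. Scaling by size factors moved the median of all genes up by 0.33 (log2) in shHOXB13 against shCtrl cells and by 0.31 in the DMSO groups, and down by 0.19 in shHOXB13 cells with CCS1477.

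*ACSL1* and *ACSL3* supplied most of the family's RNA in every group. In shHOXB13 cells they made up 93.6% and 93.6% of the summed FPKM of the 10 genes, against 81.5% and 81.0% in shCtrl cells. The sum itself was 654 and 614 FPKM in shHOXB13 cells, against 166 and 147 FPKM in shCtrl cells. The shHOXB13 DMSO libraries summed to 966 to 1020 FPKM, against at most 221 FPKM in shCtrl DMSO, without overlap in either series. By mean FPKM, *ACSL1* ranked 100 and *ACSL3* 113 of 26443 genes in shHOXB13 cells, against 723 and 1060 in shCtrl cells. In shHOXB13 DMSO cells *ACSL3* stood at rank 55 and *ACSL1* at rank 59, against 693 and 494 in shCtrl DMSO. In shHOXB13 DMSO cells the order of mean levels went on with *ACSS2* (26.3 FPKM), *ACSM3* (18.8), *ACSM1* (5.87), *ACSL6* (1.74), *ACSL4* (0.399), *ACSL5* (0.258), *ACSS1* (0.0676) and *ACSS3* (0.0196). Only *ACSL4* and *ACSL5* overlapped with their neighbour in that order. In shCtrl DMSO cells *ACSL1* led (97.4 FPKM), followed by *ACSL3* (76.9), *ACSS2* (17.8) and *ACSM3* (16.4), the last pair with overlapping libraries. The 6 lowest there, from *ACSM1* (2.00 FPKM) to *ACSS3* (0.213), included overlapping neighbours from *ACSS1* downward.

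**Figure D1:**
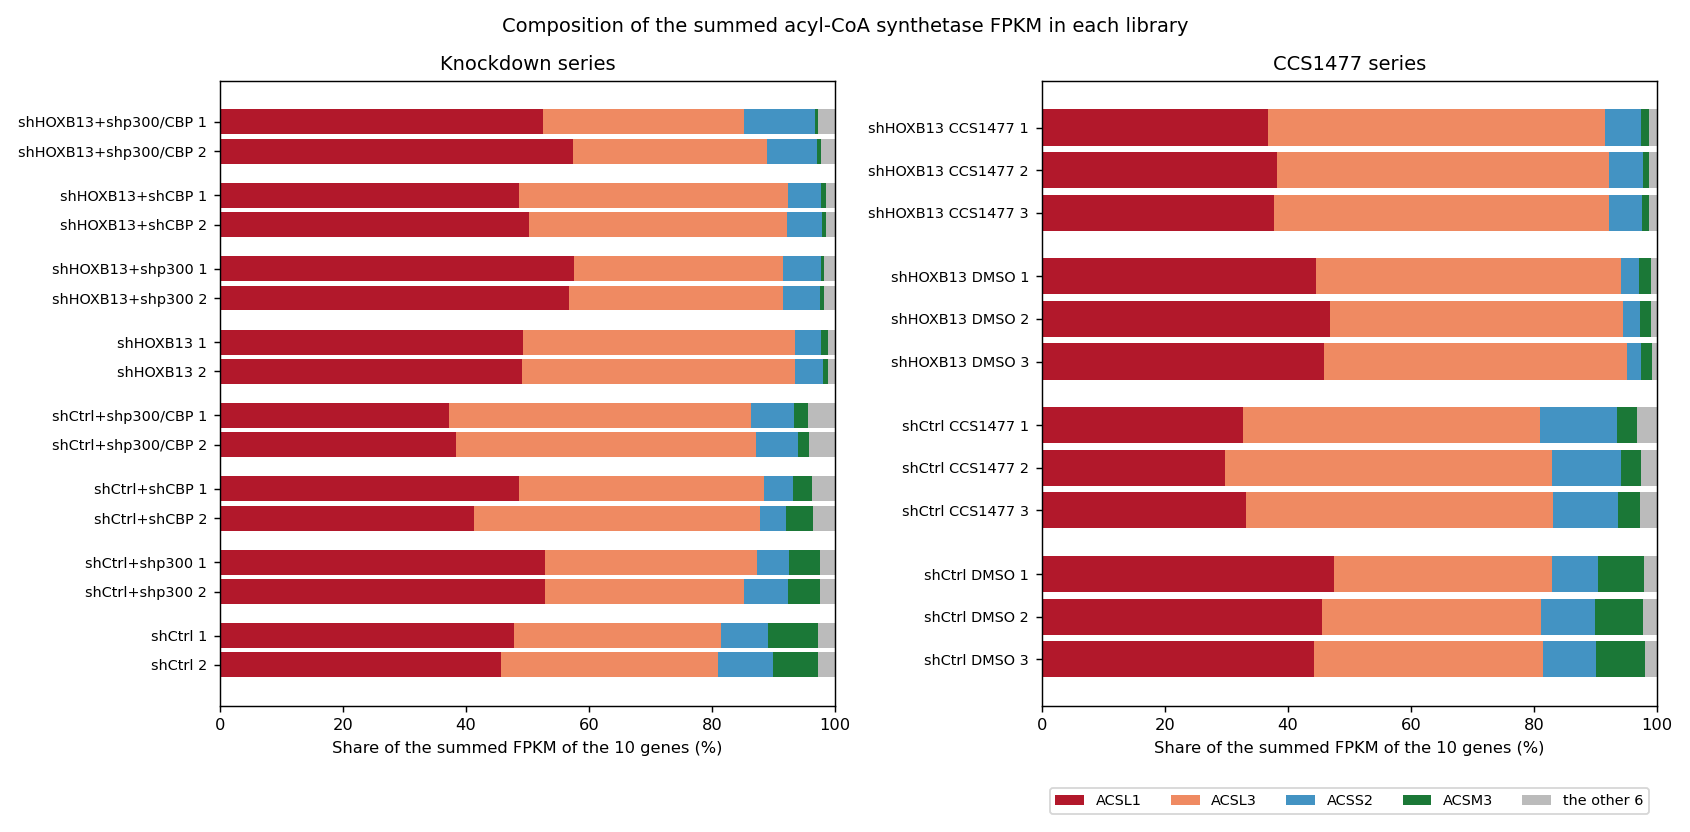
Share of the summed FPKM of the 10 acyl-CoA synthetase genes (%, x axis) taken by *ACSL1*, *ACSL3*, *ACSS2*, *ACSM3* and the other 6, 1 bar per library. *ACSL1* and *ACSL3* together take 93.6% in both shHOXB13 libraries, against 81.5% and 81.0% in the shCtrl libraries, and the *ACSL3* part is wider with CCS1477.

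*HOXB13* knockdown raised 4 and lowered 1 of the 9 members tested in the knockdown series, where 7.15% of all 17678 tested genes rose and 26.8% fell. *ACSL1*, *ACSL3*, *ACSL6* and *ACSS2* rose and *ACSM3* fell. The median log2 difference was 0.65 over the members and −0.33 over all tested genes. In the DMSO groups 4 of 10 members rose (8.58% of 15907 genes) and 4 fell (30.6%), with medians of 0.38 and −0.33. There *ACSL1*, *ACSL3*, *ACSL6* and *ACSM1* rose and *ACSL4*, *ACSL5*, *ACSS1* and *ACSS3* fell. *ACSS1* and *ACSS3* passed the filter on low values in this series only through shCtrl libraries, where they were high, so their place among the genes that fell follows in part from the filter and is not read as a result. The share of changed genes that rose depends on scaling: it was 21% for shHOXB13 against shCtrl and 52.5% after size-factor scaling, and 21.9% and 48.2% in the DMSO groups.

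Against shHOXB13 alone, shp300 lowered 2 of 9 members (3.09% of all genes fell) and raised none (3.15% rose), and shCBP lowered 2 (1.08% fell) and raised none (0.385% rose). The share of changes with shCBP that rose was 26.3%, and 43.2% after scaling. With shp300/CBP, 4 of 9 fell (13.3%) and none rose (9.06%), with medians of −0.27 over the members and 0 over all genes. These 4 were *ACSL1*, *ACSL3*, *ACSM1* and *ACSM3*. The 4 stayed called without any 1 library, but with only these groups in the fit none passed (adjusted p 0.0516 to 0.0627). The shHOXB13 libraries that serve as the control here are those tested against shCtrl above, so the comparisons share samples.

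In shCtrl cells shp300 raised 2 of 9 (1% of all genes rose, 2.09% fell), shCBP raised 1 (3.39%) and lowered 2 (6.67%), and shp300/CBP raised 2 (7.6%) and lowered 1 (7.89%). For shCBP the share of changes that rose was 33.7%, and 55.5% after scaling. Set directly against shHOXB13+shCBP, shHOXB13+shp300 had no member past the limma threshold, where 1.82% of genes were higher and 0.69% lower. Of the members, 3, *ACSL1*, *ACSL5* and *ACSS2*, had an unadjusted p under 0.05 there and 1 passed with limma-voom on recovered reads. The share of differences that were higher was 72.5%, and 57.6% after scaling. The effect of shp300/CBP differed between shHOXB13 and shCtrl cells for 3 of 9 members, all more negative in shHOXB13 cells (5.59% of genes, with 2.53% more positive).

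CCS1477 lowered 4 of 10 members in shHOXB13 cells (5.31% of all genes fell) and raised 2 (14.9% rose). *ACSL1*, *ACSL3*, *ACSM1* and *ACSM3* fell, and *ACSL4* and *ACSL6* rose. In shCtrl cells 3 fell (*ACSL1*, *ACSS1* and *ACSM3*, with 5.56% of all genes) and 2 rose (*ACSL4* and *ACSL6*, with 6.58%). Its effect differed between shHOXB13 and shCtrl cells for 2 of 10 members, both more negative in shHOXB13 cells (2.45% of genes, with 6.71% more positive). Scaling moved the share that rose to 49.2% in shHOXB13 cells (73.7% without it), to 43.1% in shCtrl cells (54.2%) and to 51.1% for the difference between them (73.3%).

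**Figure D2:**
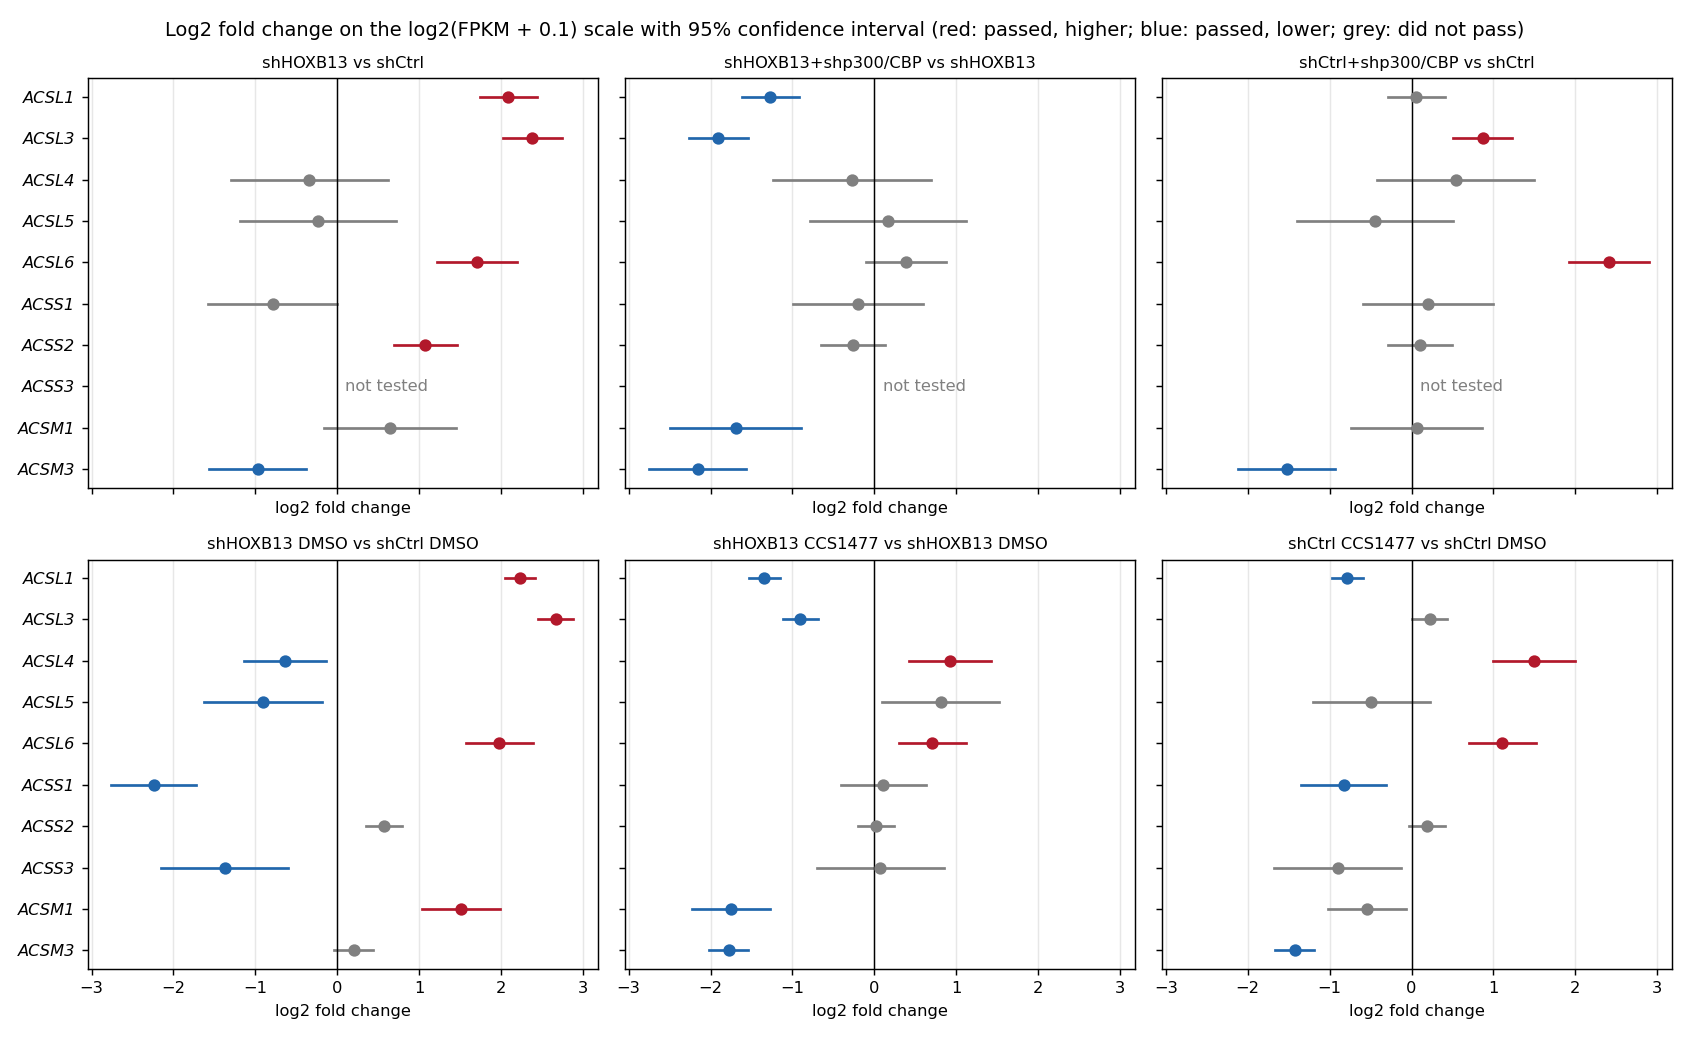
Log2 fold change (x axis, log2(FPKM + 0.1) scale) with its 95% confidence interval for each member in 6 comparisons. Red points passed as higher and blue as lower, and grey did not pass. *ACSL1* and *ACSL3* lie right of 0 for shHOXB13 in both series and left of 0 for shp300/CBP and CCS1477 in shHOXB13 cells.

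*ACSL1* and *ACSL3* encode long-chain enzymes. The *ACSL1* protein lies on the endoplasmic reticulum and the mitochondrial outer membrane, and the *ACSL3* protein lies on the endoplasmic reticulum and on lipid droplets, where it takes part in droplet formation. *ACSL1* (chr4:184755595-184826818 in GRCh38, minus strand, 21 exons in GENCODE 44) had 322 and 301 FPKM in shHOXB13 cells, against 79.5 and 67.4 FPKM in shCtrl cells. In the DMSO groups it had 430.0, 476 and 468 FPKM in shHOXB13 cells, against 95.1, 101 and 96.4 FPKM in shCtrl cells. Without added hairpins or CCS1477, every shHOXB13 library lay far above every shCtrl library of its series. The log2 difference was 2.09 (SE 0.16, limma adjusted p = 2.69e-06; 4.25-fold) in the knockdown series and 2.23 (SE 0.09, limma adjusted p = 2.63e-09; 4.69-fold) in the DMSO groups. *ACSL3* (chr2:222860942-222944639, plus strand, 17 exons) had 289.9 and 273 FPKM in shHOXB13 cells, against 55.8 and 52.0 FPKM in shCtrl cells. With DMSO it had 480.4, 483 and 504 FPKM in shHOXB13 cells, against 70.9, 78.6 and 81.2 FPKM in shCtrl cells, 6.36-fold higher (log2 difference 2.67, SE 0.10, limma adjusted p = 1.72e-09). Of the members tested, *ACSL3* had the largest log2 difference with shHOXB13 in either series. Both genes kept their call in both series under all alternatives run.

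The 300 bases around the RefSeq start of each gene (250 before, 50 after, GRCh38.p14) were read for 8 of the 10 members, leaving *ACSS3* and *ACSM3*. *ACSL1* and *ACSL3*, the genes with the largest rise, have CpG-dense windows, whereas that of *ACSM1* is CpG-poor. They are printed 5′ to 3′ on the gene's strand with each CpG in capitals: chr4:184825919-184826218 (minus), chr2:222860786-222861085 (plus) and chr16:20691207-20691506 (minus).
*ACSL1*: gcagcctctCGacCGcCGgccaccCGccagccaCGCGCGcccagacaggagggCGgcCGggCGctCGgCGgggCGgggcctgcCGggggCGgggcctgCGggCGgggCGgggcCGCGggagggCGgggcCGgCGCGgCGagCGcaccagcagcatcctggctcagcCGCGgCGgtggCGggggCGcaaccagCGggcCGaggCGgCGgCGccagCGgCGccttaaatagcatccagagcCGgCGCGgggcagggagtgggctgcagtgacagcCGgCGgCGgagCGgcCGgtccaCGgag
*ACSL3*: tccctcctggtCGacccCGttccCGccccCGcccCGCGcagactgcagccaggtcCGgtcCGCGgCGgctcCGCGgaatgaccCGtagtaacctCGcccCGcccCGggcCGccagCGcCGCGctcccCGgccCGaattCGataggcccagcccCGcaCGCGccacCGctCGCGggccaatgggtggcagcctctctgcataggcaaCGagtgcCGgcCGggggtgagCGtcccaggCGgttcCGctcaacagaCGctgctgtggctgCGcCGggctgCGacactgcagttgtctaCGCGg
*ACSM1*: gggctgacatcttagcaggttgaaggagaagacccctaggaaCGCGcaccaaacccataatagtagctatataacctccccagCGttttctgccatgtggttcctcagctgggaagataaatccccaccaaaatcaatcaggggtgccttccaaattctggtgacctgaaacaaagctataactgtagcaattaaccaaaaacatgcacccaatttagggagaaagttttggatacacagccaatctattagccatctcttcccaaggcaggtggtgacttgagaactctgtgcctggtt

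These windows hold 47 CpG in *ACSL1*, 41 in *ACSL3* and 3 in *ACSM1*, against a median of 14 over 34796 promoters of the same length. *ACSL4* (51 CpG) and *ACSS1* (25), which did not rise with shHOXB13, were also above that median, and *ACSL6* (6) and *ACSS2* (4), which rose in the knockdown series, were below it. The sterol response element letters TCACNCCAC, searched on both strands, are in 1.12% of all promoters and in none of the 8. The E-box CACGTG is in 7.2% and in none of the 8. The HOXB13 site letters CAATAAA are in 4.02% of all promoters and in 1 of the 8, *ACSL5* (chr10:112375018-112375317, plus strand), at position −219 from the start, shown in capitals.
*ACSL5*: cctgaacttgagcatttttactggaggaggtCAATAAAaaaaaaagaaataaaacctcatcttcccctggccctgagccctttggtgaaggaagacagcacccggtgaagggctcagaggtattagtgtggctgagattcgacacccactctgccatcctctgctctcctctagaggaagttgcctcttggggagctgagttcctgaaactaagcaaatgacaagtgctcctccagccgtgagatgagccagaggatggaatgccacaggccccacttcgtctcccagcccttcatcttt

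These matches and CpG counts describe the letters of the windows only, and other starts of the genes were not read. *ACSL5* is a low gene here and is described with the other ACSL genes.

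**Figure D3:**
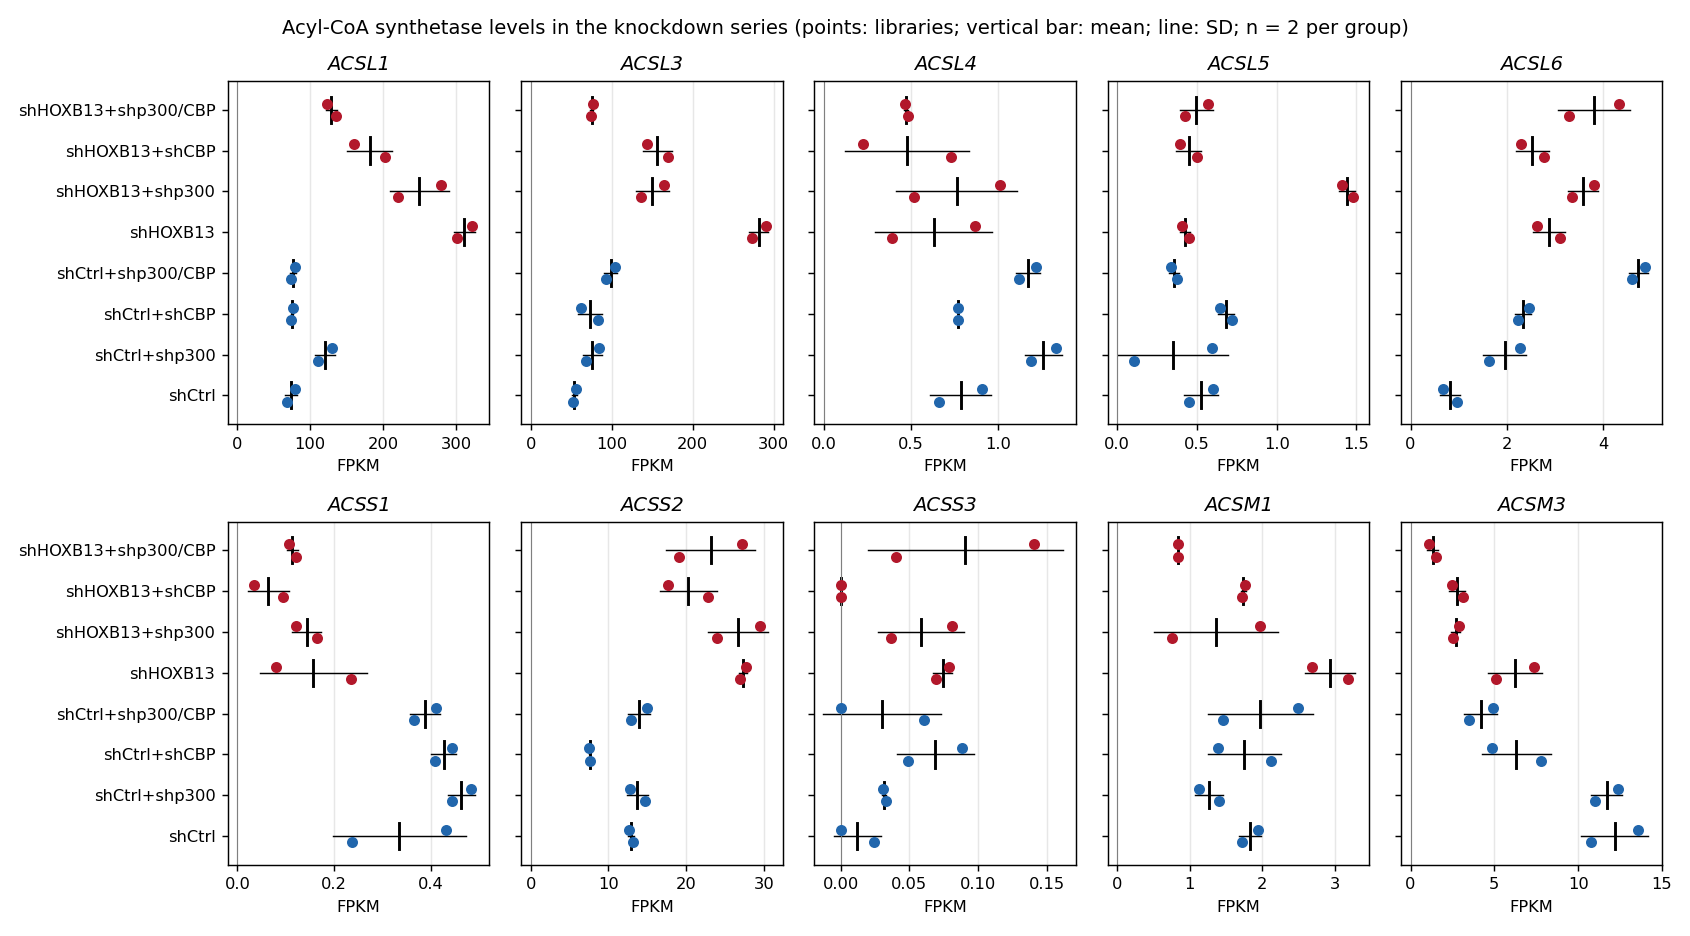
FPKM (x axis, linear) of each member in the 8 groups of the knockdown series (n = 2), shHOXB13 groups in red above shCtrl groups in blue, with points for libraries, a vertical bar for the mean and a line for the SD. *ACSL1* and *ACSL3* are highest in shHOXB13 alone, at 301 to 322 and 273 to 289.9 FPKM.

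Adding both hairpins to shHOXB13 cells lowered both genes, each hairpin alone lowered *ACSL3*, and shCBP alone also lowered *ACSL1*. *ACSL1* had 279 and 221 FPKM under shp300, 159.9 and 203 FPKM under shCBP and 123 and 135 FPKM under shp300/CBP, against 322 and 301 FPKM in shHOXB13 alone. Its log2 difference was −0.33 with shp300 (SE 0.16, limma adjusted p = 0.251), which did not pass, −0.79 with shCBP (SE 0.16, limma adjusted p = 0.0398) and −1.27 with shp300/CBP (SE 0.16, limma adjusted p = 0.000259). *ACSL3* had 164 and 136 FPKM under shp300, 143 and 169 FPKM under shCBP and 76.5 and 73.8 FPKM under shp300/CBP, against 289.9 and 273 FPKM in shHOXB13 alone. No library with an added hairpin reached the shHOXB13 libraries. Its log2 difference was −0.91 with shp300 (SE 0.17, limma adjusted p = 0.00799), −0.85 with shCBP (SE 0.17, limma adjusted p = 0.0376) and −1.90 with shp300/CBP (3.74-fold lower, limma adjusted p = 3.19e-05). Between shp300 and shCBP in shHOXB13 cells, *ACSL1* differed by 0.46 (95% interval 0.11 to 0.81, limma adjusted p = 0.155) and *ACSL3* by −0.06 (−0.43 to 0.30, limma adjusted p = 0.912). The single-hairpin calls were fragile. Without shHOXB13 replicate 1, shHOXB13 replicate 2 or shHOXB13+shp300 replicate 2, *ACSL3* with shp300 had adjusted p of 0.0738, 0.0513 and 0.0731. With shCBP both calls were lost without shHOXB13 replicate 1 (adjusted p 0.248 for *ACSL1* and 0.241 for *ACSL3*), shHOXB13 replicate 2 (0.163 and 0.161) or shHOXB13+shCBP replicate 1 (0.209 and 0.203). With only the groups compared in the fit, *ACSL3* with shp300 (adjusted p 0.117) and both genes with shCBP (0.216 for *ACSL1* and 0.184 for *ACSL3*) were lost, and with the replicate block both genes with shCBP were lost (0.0576 and 0.0571).

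In shCtrl cells neither gene fell past the threshold with any hairpin. *ACSL1* had 129.8 and 110.4 FPKM under shp300, 76.3 and 73.9 FPKM under shCBP and 79.5 and 73.1 FPKM under both, against 79.5 and 67.4 FPKM in shCtrl alone. With shp300 it rose by a log2 of 0.71 (SE 0.16, limma adjusted p = 0.0345), a call lost without any 1 of the 4 libraries (shCtrl replicates 1 and 2, adjusted p 0.091 and 0.227; shCtrl+shp300 replicates 1 and 2, 0.271 and 0.0713). *ACSL3* had 84.6 and 67.7 FPKM under shp300, 62.5 and 83.3 FPKM under shCBP and 105 and 92.8 FPKM under both, against 55.8 and 52.0 FPKM in shCtrl alone. It rose with shp300/CBP (log2 difference 0.87, SE 0.17, limma adjusted p = 0.00435). With both hairpins *ACSL3* was thus lower in each shHOXB13 library than in each shCtrl library. The effect of shp300/CBP differed between shHOXB13 and shCtrl cells by −1.33 for *ACSL1* (SE 0.22, limma adjusted p = 0.00588) and by −2.77 for *ACSL3* (SE 0.24, limma adjusted p = 0.000153). In the same shCtrl libraries *HOXB13* itself was lower with added hairpins, at 53.7 and 45.0 FPKM with shp300/CBP against 87.6 and 85.4 FPKM in shCtrl alone, and its part in these values was not tested.

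CCS1477 lowered both genes in shHOXB13 cells. *ACSL1* had 174, 185 and 181 FPKM with CCS1477, against 430.0, 476 and 468 FPKM with DMSO, a log2 difference of −1.35 (SE 0.09, limma adjusted p = 7.42e-07; 2.54-fold lower). *ACSL3* had 259, 261 and 262 FPKM with CCS1477, against 480.4, 483 and 504 FPKM with DMSO, a log2 difference of −0.91 (SE 0.10, limma adjusted p = 2.92e-05; 1.87-fold lower). The groups did not overlap, and both genes stayed above every shCtrl library. In shCtrl cells *ACSL1* had 51.3, 54.5 and 64.6 FPKM with CCS1477, against 95.1, 101 and 96.4 FPKM with DMSO, and fell by 0.78 on the log2 scale (SE 0.09, limma adjusted p = 7.79e-05). *ACSL3* had 75.6, 97.3 and 97.3 FPKM with CCS1477, against 70.9, 78.6 and 81.2 FPKM with DMSO, a log2 difference of 0.22 (95% interval 0.01 to 0.43, limma adjusted p = 0.123) with overlapping libraries. The effect of CCS1477 was more negative in shHOXB13 than in shCtrl cells by −1.13 for *ACSL3* (SE 0.14, limma adjusted p = 0.000561). For *ACSL1* that difference was −0.56 (SE 0.12, limma adjusted p = 0.0119), 1.48-fold and so short of the fold threshold, which it passed after size-factor scaling (−0.69, limma adjusted p = 0.0041).

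In shHOXB13 cells the ratio of the main pair was lower with shp300 or shp300/CBP and higher with the inhibitor. The ratio of *ACSL3* to *ACSL1* FPKM was 0.62 and 0.548 in shHOXB13+shp300/CBP and 0.589 and 0.614 in shHOXB13+shp300, against 0.900 and 0.907 in shHOXB13 alone. It was 1.49, 1.42 and 1.45 in shHOXB13 CCS1477, against 1.12, 1.02 and 1.08 in shHOXB13 DMSO. In shCtrl cells it was 1.32 and 1.27 with shp300/CBP and 0.652 and 0.613 with shp300, against 0.702 and 0.771 in shCtrl alone, so that it was higher with both hairpins and lower with shp300. It was 1.47, 1.79 and 1.51 with CCS1477, against 0.745, 0.781 and 0.843 with DMSO. The groups of each pair did not overlap. These ratios are descriptions and were not tested.

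**Figure D4:**
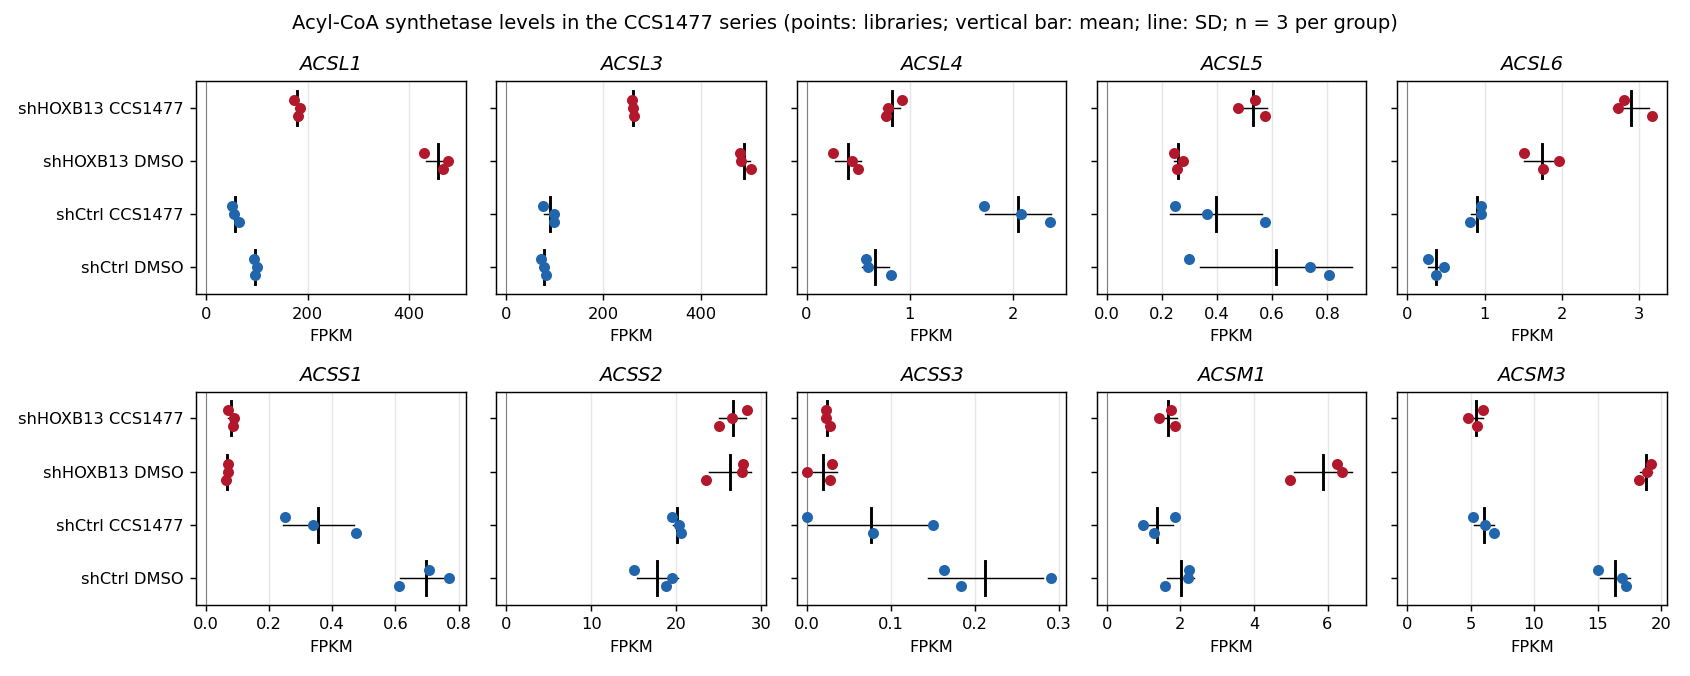
FPKM (x axis, linear) of each member in the 4 groups of the CCS1477 series (n = 3), shHOXB13 groups in red above shCtrl groups in blue, with points for libraries, a vertical bar for the mean and a line for the SD. *ACSL1*, *ACSL3*, *ACSM1* and *ACSM3* are lower with CCS1477 than with DMSO in shHOXB13 cells, *ACSM3* at 4.81 to 5.96 FPKM against 18.2 to 19.2 FPKM.

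*ACSL6* (chr5:131949973-132012243, minus strand, 21 exons) encodes a long-chain enzyme best known from brain, where it acts on polyunsaturated fatty acids. It had 2.63 and 3.11 FPKM in shHOXB13 cells, against 0.670 and 0.967 FPKM in shCtrl cells. With DMSO it had 1.51, 1.96 and 1.75 FPKM in shHOXB13 cells, against 0.268, 0.479 and 0.371 FPKM in shCtrl cells. It rose in both series without overlap, by a log2 of 1.71 (SE 0.22, limma adjusted p = 0.000133) and of 1.98 (SE 0.19, limma adjusted p = 3.07e-06). Unlike *ACSL1* and *ACSL3*, no treatment against p300 or CBP lowered it past the threshold. In shCtrl cells it had 4.88 and 4.59 FPKM with shp300/CBP, 2.46 and 2.23 FPKM with shCBP and 2.28 and 1.63 FPKM with shp300, against 0.670 and 0.967 FPKM in shCtrl alone. It thus rose with each of the 3, by a log2 of 2.42 (SE 0.22, limma adjusted p = 7.21e-05), 1.43 (SE 0.22, limma adjusted p = 0.0032) and 1.16 (SE 0.22, limma adjusted p = 0.0168). The last call was lost without shCtrl replicate 1 (adjusted p 0.145) or shCtrl+shp300 replicate 1 (0.183). With only the groups compared in the fit, the calls with shCBP (adjusted p 0.106) and shp300 (0.234) were both lost. In shHOXB13 cells it had 4.34 and 3.29 FPKM with shp300/CBP, against 2.63 and 3.11 FPKM alone, a log2 difference of 0.39 (95% interval −0.10 to 0.88, limma adjusted p = 0.226). The effect of shp300/CBP differed between shHOXB13 and shCtrl cells by −2.03 (SE 0.32, limma adjusted p = 0.00399).

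With CCS1477 *ACSL6* had 2.80, 2.72 and 3.16 FPKM in shHOXB13 cells, against 1.51, 1.96 and 1.75 FPKM with DMSO. It had 0.949, 0.948 and 0.818 FPKM in shCtrl cells with CCS1477, against 0.268, 0.479 and 0.371 FPKM with DMSO. It rose in both, by a log2 of 0.71 (SE 0.19, limma adjusted p = 0.0102) and of 1.11 (SE 0.19, limma adjusted p = 0.00126). After size-factor scaling the rise in shHOXB13 cells was 0.51 (limma adjusted p = 0.0484) and no longer 1.5-fold, and at a pseudocount of 1 the rises were 0.51 and 0.47, both short of 1.5-fold. The difference between the 2 effects was −0.40 (95% interval −0.98 to 0.17, limma adjusted p = 0.349).

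*ACSL4* (chrX:109624244-109733403, minus strand, 16 exons) encodes the enzyme that prefers arachidonic acid and is known for a role in ferroptosis. It rested on 9 to 158 reads per library. CCS1477 raised it in both backgrounds. It had 0.922, 0.786 and 0.775 FPKM in shHOXB13 cells with CCS1477, against 0.258, 0.439 and 0.502 FPKM with DMSO (log2 difference 0.92, SE 0.23, limma adjusted p = 0.00698). In shCtrl cells it had 1.72, 2.08 and 2.36 FPKM with CCS1477, against 0.580, 0.600 and 0.815 FPKM with DMSO (2.82-fold on the log2(FPKM + 0.1) scale, limma adjusted p = 0.000662). The libraries did not overlap in either. With shHOXB13 it fell in the DMSO groups by 0.64 on the log2 scale (SE 0.23, limma adjusted p = 0.031). That call was lost after size-factor scaling (−0.35, limma adjusted p = 0.227), without shCtrl DMSO replicate 3 (0.113) and without shHOXB13 DMSO replicate 1 (0.128). It was lost too with no filter on low values (0.053), with only the groups compared (0.0868) and at a pseudocount of 1 (−0.25, limma adjusted p = 0.0534). In the knockdown series *ACSL4* had 0.869 and 0.394 FPKM in shHOXB13 cells, against 0.910 and 0.661 FPKM in shCtrl cells, which overlapped. None of the hairpin comparisons passed for it. At a pseudocount of 1 the rise with CCS1477 in shHOXB13 cells was 0.39 and no longer 1.5-fold.

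*ACSL5* (chr10:112374116-112428379, plus strand, 21 exons) encodes a long-chain enzyme of mitochondria and endoplasmic reticulum, known from intestine and liver. It rested on 4 to 50 reads per library, and its GENCODE 44 exons share 144 bases with *ZDHHC6* (7.05 to 20.8 FPKM) on the other strand. Reads in those bases cannot be assigned to either gene without strand. Their part in the level of *ACSL5* was not tested. It was highest in shHOXB13+shp300, at 1.41 and 1.48 FPKM, against 0.405 and 0.449 FPKM in shHOXB13 alone. The other 14 libraries of the knockdown series ran from 0.106 to 0.718 FPKM. The log2 difference was 1.55 (SE 0.44, limma adjusted p = 0.0551) and did not pass, though it did after size-factor scaling (limma adjusted p = 0.036) and with limma-voom on recovered reads (adjusted p = 0.0101). With shHOXB13 in the DMSO groups it had 0.245, 0.275 and 0.254 FPKM, against 0.297, 0.737 and 0.804 FPKM in shCtrl DMSO cells. That fall of 0.91 on the log2 scale (SE 0.33, limma adjusted p = 0.0327) was lost after size-factor scaling (−0.64, limma adjusted p = 0.113). It was lost too without shCtrl DMSO replicate 2 (adjusted p 0.111), shCtrl DMSO replicate 3 (0.124), or shHOXB13 DMSO replicate 1 (0.0757), 2 (0.0606) or 3 (0.0722). No filter on low values (0.0509) and only the groups compared (0.0638) also lost it. At a pseudocount of 1 the fall was 0.34 and no longer 1.5-fold.

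*ACSS2* (chr20:34872146-34927962, plus strand, 18 exons) encodes the cytosolic and nuclear acetyl-CoA synthetase, which makes acetyl-CoA from acetate for lipid synthesis and histone acetylation. It had 27.7 and 27.0 FPKM in shHOXB13 cells, against 12.7 and 13.2 FPKM in shCtrl cells, and rose 2.11-fold (log2 difference 1.08, SE 0.18, limma adjusted p = 0.000598). With DMSO it had 27.8, 27.7 and 23.5 FPKM in shHOXB13 cells, against 15.1, 19.5 and 18.8 FPKM in shCtrl cells. The libraries did not overlap, but the difference of 0.57 (SE 0.10, limma adjusted p = 0.000478) was 1.48-fold and short of the fold threshold. It passed after size-factor scaling (0.91, limma adjusted p = 3.38e-06). Neither the hairpins nor CCS1477 changed it past the threshold in shHOXB13 cells. It had 27.2 and 19.1 FPKM with shp300/CBP, against 27.7 and 27.0 FPKM in shHOXB13 alone (log2 difference −0.26, 95% interval −0.65 to 0.13, limma adjusted p = 0.308). With CCS1477 it had 28.3, 26.5 and 25.0 FPKM, against 27.8, 27.7 and 23.5 FPKM with DMSO (log2 difference 0.02, 95% interval −0.20 to 0.24, limma adjusted p = 0.913), a difference whose sign turned with scaling. In shCtrl cells shCBP lowered it, to 7.56 and 7.65 FPKM against 12.7 and 13.2 FPKM in shCtrl alone (log2 difference −0.76, SE 0.18, limma adjusted p = 0.0185). That call was lost without shCtrl replicate 1 (adjusted p 0.101) or 2 (0.0828) and without shCtrl+shCBP replicate 1 (0.11) or 2 (0.0637).

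*ACSS1* (chr20:25006230-25058980, minus strand, 14 exons) encodes the mitochondrial acetyl-CoA synthetase and was close to the limit of detection. It had 3, 3 and 3 reads in shHOXB13 DMSO cells, against 23, 28 and 22 reads in shCtrl DMSO cells. That is 0.0684, 0.0699 and 0.0644 FPKM in shHOXB13 DMSO cells, against 0.708, 0.769 and 0.610 FPKM in shCtrl DMSO cells, with no overlap. Per mapped read, the ratio of summed reads was 0.0971 (95% exact interval 0.0427 to 0.195, which like the other read intervals covers counting error only). The limma fit gave a log2 difference of −2.24 (adjusted p = 8.64e-06). Its size depends on the pseudocount and is no bound, and the gene entered the fit only through shCtrl libraries, since all 6 shHOXB13 libraries of this series lay under the filter of 0.1 FPKM. In the knockdown series it had 4 and 9 reads in shHOXB13 cells, against 24 and 13 reads in shCtrl cells, a ratio of 0.437 (0.213 to 0.842), and did not pass (limma adjusted p = 0.106). With CCS1477 in shCtrl cells it had 0.251, 0.340 and 0.475 FPKM, against 0.708, 0.769 and 0.610 FPKM with DMSO, and fell by 0.83 (SE 0.24, limma adjusted p = 0.0249). The call was lost without replicate 1 or 2 of shCtrl DMSO (adjusted p 0.0594 and 0.0799) or of shCtrl CCS1477 (0.0828 and 0.0634), and in a fit of these 2 groups with same-numbered libraries paired (0.102).

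*ACSS3* (chr12:80936414-81261210, plus strand, 16 exons), a mitochondrial enzyme for which propionate is a known substrate, had 0 to 8 reads per library. It was not tested in the knockdown series, where it had 0 to 5 reads. In the DMSO groups it had 1, 0 and 1 reads in shHOXB13 cells, against 4, 8 and 5 reads in shCtrl cells, a ratio per mapped read of 0.0926 (0.0104 to 0.39). Its exons share 1686 bases with *PPFIA2* (9.05 to 40.5 FPKM) on the other strand.

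*ACSM1* and *ACSM3* encode mitochondrial medium-chain enzymes and lie on opposite strands of the same stretch of chromosome 16 without shared exon bases. *ACSM1* (chr16:20623235-20698890, minus strand, 14 exons) had 6.26, 6.39 and 4.97 FPKM in shHOXB13 DMSO cells, against 2.23, 2.21 and 1.58 FPKM in shCtrl DMSO cells. It rose without overlap (log2 difference 1.51, SE 0.22, limma adjusted p = 9.87e-05). In the knockdown series it had 2.69 and 3.18 FPKM in shHOXB13 cells, against 1.94 and 1.72 FPKM in shCtrl cells (log2 difference 0.65, SE 0.37, limma adjusted p = 0.189), a difference that passed after size-factor scaling (1.04, limma adjusted p = 0.038). In shHOXB13 cells *ACSM1* had 0.831 and 0.835 FPKM with shp300/CBP, against 2.69 and 3.18 FPKM alone, and fell (log2 difference −1.70, SE 0.37, limma adjusted p = 0.00592). With CCS1477 it had 1.76, 1.42 and 1.85 FPKM, against 6.26, 6.39 and 4.97 FPKM with DMSO, and fell by 1.75 on the log2 scale (SE 0.22, limma adjusted p = 8.7e-05). In shCtrl cells it did not pass with either, at 2.49 and 1.46 FPKM with shp300/CBP against 1.94 and 1.72 FPKM alone, and 1.85, 0.976 and 1.28 FPKM with CCS1477 against 2.23, 2.21 and 1.58 FPKM with DMSO. The effect of shp300/CBP differed between shHOXB13 and shCtrl cells by −1.76 (SE 0.52, limma adjusted p = 0.0612), which did not pass. It did with the filter at 1 FPKM (0.0433), with size-factor scaling (0.0487), with only the groups compared (0.0496) and with limma-voom (0.0275). The effect of CCS1477 was more negative in shHOXB13 than in shCtrl cells by −1.20 (SE 0.31, limma adjusted p = 0.0258). That call was lost without shCtrl DMSO replicate 3 (adjusted p 0.0619), shHOXB13 DMSO replicate 1 (0.0585) or 2 (0.0619), or shHOXB13 CCS1477 replicate 1 (0.0503) or 2 (0.0653). *ACSM1* rested on 14 to 140 reads per library.

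*ACSM3* (chr16:20610243-20797581, plus strand, 14 exons) was lower under every p300/CBP treatment in shHOXB13 cells, and in most in shCtrl cells. It had 2.89 and 2.51 FPKM under shp300, 2.46 and 3.13 FPKM under shCBP and 1.08 and 1.55 FPKM under shp300/CBP, against 7.36 and 5.09 FPKM in shHOXB13 alone. The log2 difference was −1.16 with shp300 (SE 0.27, limma adjusted p = 0.0264), −1.12 with shCBP (SE 0.27, limma adjusted p = 0.0611, which did not pass) and −2.16 with shp300/CBP (SE 0.27, limma adjusted p = 0.000267). The shp300 call was lost without shHOXB13 replicate 1 (adjusted p 0.209) or 2 (0.0529) and without shHOXB13+shp300 replicate 1 (0.0723) or 2 (0.141). In shCtrl cells it had 12.4 and 11.0 FPKM under shp300, 4.88 and 7.76 FPKM under shCBP and 4.90 and 3.50 FPKM under shp300/CBP, against 13.6 and 10.8 FPKM in shCtrl alone. It fell with shp300/CBP (log2 difference −1.52, SE 0.27, limma adjusted p = 0.00282) and with shCBP (−0.96, SE 0.27, limma adjusted p = 0.0391). With only the groups compared in the fit both calls were lost (limma adjusted p 0.0526 and 0.185). With no filter on low values the shCBP call was lost (limma adjusted p 0.0541). The call with shCBP was lost after size-factor scaling (adjusted p 0.0516), without shCtrl replicate 1 (0.251) or 2 (0.0736), and without shCtrl+shCBP replicate 1 (0.307).

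CCS1477 lowered *ACSM3* to 5.96, 4.81 and 5.49 FPKM in shHOXB13 cells, against 19.2, 18.9 and 18.2 FPKM with DMSO. In shCtrl cells it had 5.22, 6.12 and 6.85 FPKM with CCS1477, against 15.01, 16.9 and 17.2 FPKM with DMSO. It fell by 1.78 (SE 0.11, limma adjusted p = 5.52e-07) and by 1.43 (SE 0.11, limma adjusted p = 6.95e-06) on the log2 scale, and the difference between these was −0.35 (95% interval −0.69 to −0.02, limma adjusted p = 0.153). With shHOXB13 itself *ACSM3* was not alike in the 2 series. It had 7.36 and 5.09 FPKM in shHOXB13 cells, against 13.6 and 10.8 FPKM in shCtrl cells (log2 difference −0.97, SE 0.27, limma adjusted p = 0.0137). In the DMSO groups it had 19.2, 18.9 and 18.2 FPKM in shHOXB13 cells, against 15.01, 16.9 and 17.2 FPKM in shCtrl cells (log2 difference 0.20, SE 0.11, limma adjusted p = 0.138), and the difference between the series was not tested. The fall in the knockdown series was lost after size-factor scaling (−0.57, limma adjusted p = 0.111), with only these groups in the fit (adjusted p 0.067), without shCtrl replicate 1 (0.11) and without shHOXB13 replicate 2 (0.131). Its exons share 867 bases with *ERI2* (2.06 to 14.9 FPKM) on the other strand.

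Other genes of acyl-CoA metabolism gave a point of comparison. Of 17 further acyl-CoA synthetases, 13 were tested in shHOXB13 against shCtrl cells, where 1 rose and 4 fell, and 12 in the DMSO groups, where 1 rose and 3 fell. Of all tested genes 7.15% rose and 26.8% fell in the knockdown series, and 8.58% rose and 30.6% fell in the DMSO groups. The median of the further synthetases was −0.28 and −0.06 on the log2 scale. *SLC27A4*, a fatty acid transport protein with synthetase activity, was the gene that rose in both, to 27.7 ± 0.359 FPKM in shHOXB13 cells against 18.1 ± 2.50 FPKM in shCtrl cells (SD, n = 2; log2 difference 0.62, limma adjusted p = 0.00903) and by 0.82 in the DMSO groups (limma adjusted p = 7.58e-07). *SLC27A2* and *SLC27A3*, of the same transporter family, fell in both, by 0.88 and 0.98 on the log2 scale in the knockdown series and by 1.21 and 1.26 in the DMSO groups. With shp300/CBP in shHOXB13 cells 1 of the 13 rose and 1 fell (9.06% and 13.3% of all genes), and with CCS1477 3 of the 12 rose and none fell (14.9% and 5.31%). The rest of the 17 were below the filter on low values.

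Of 13 acyl-CoA thioesterases, which release the fatty acid again, 10 were tested in each series, and 1 rose and 1 fell with shHOXB13 in both, beside the same shares of all genes. *THEM4* had 10.8 ± 0.089 FPKM in shHOXB13 cells, against 7.05 ± 0.23 FPKM in shCtrl cells (SD, n = 2; log2 difference 0.61, limma adjusted p = 0.005), and rose by 0.63 in the DMSO groups (limma adjusted p = 0.000106). It fell with shp300/CBP in shHOXB13 cells by 0.78 on the log2 scale (limma adjusted p = 0.00231), 1 of 3 thioesterases of 10 that did (13.3% of all genes). *ACOT11* fell by 1.17 and by 1.13 with shHOXB13. Of 6 acyl-CoA binding protein genes, 3 fell in shHOXB13 against shCtrl cells (26.8% of all genes), and 1 rose and 2 fell in the DMSO groups (8.58% and 30.6%). *ACBD6* fell in both, by 0.77 and 0.85.

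Across the 12 group means, each series centred on its own mean, *ACSL1* and *ACSL3* had a Pearson correlation of 0.909, the closest pair of the 36 pairs of members tested in both series. *ACSM1* and *ACSM3* had 0.564, *ACSL6* and *ACSM3* −0.591, and *ACSL3* and *ACSS1* −0.775. Among 14836 genes, the patterns most like that of *ACSL1* were *TMEM62* (0.96), *FDFT1* (0.959), which encodes squalene synthase, and *WIPI1* (0.958). Those most like *ACSL3* were *TMEM62* (0.978), *HPX* (0.963) and *STIM1* (0.961). *ACSL6* was nearest to *IL11RA* (0.957), *ACSS2* to *HIST1H1C* (0.981), *ACSS1* to *NUDT13* (0.988), *ACSM1* to *SEC13* (0.946), *ACSM3* to *GNL3* (0.964), *ACSL4* to *ETNPPL* (0.947) and *ACSL5* to *MUC20* (0.866). The 12 points share libraries and depth between genes, and these correlations are descriptions.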

How the data were processed

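RNA was measured by polyA RNA-seq in 28 libraries. The authors aligned reads to GRCh38 (hg38) with STAR (2.6.0 per the submitters' notes), counted them per gene without regard to strand and deposited FPKM, scaled to all mapped reads and gene length. The authors ran DESeq2 on counts, which are not used here. Reads were recovered as FPKM times length and depth for the 20267 genes given a length. Depth was estimated from short genes of known length. Each gene's length was taken as the smallest whole number that gave near-whole reads in every library. The product came within 0.05 of a whole read for 100.0% of 472421 values above 0. That share follows from how the lengths were chosen and is no check of them.

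Genes at 0.1 FPKM or more in 2 libraries of the knockdown series, or 3 of the CCS1477 series, were tested on log2(FPKM + 0.1) with limma 3.58.1 (R 4.3.3, trended prior, no replicate block), in 1 fit per series. Benjamini-Hochberg adjustment was made within each comparison. Scripts used Python 3.11.15 and scipy 1.17.1. The fit was also run on simulated reads with few changed genes and no shift of the median. That setting differs from these data, so it does not check the calls made here. Groups came from the sample labels, and all 10 members are named whatever their values, with members of the other lists named when they passed in both shHOXB13 comparisons. The members and lists were chosen with earlier results of these data known. Alternatives were pseudocounts of 1 and 0.01, no filter or 1 FPKM, size-factor (median-of-ratios) scaling, only the groups compared, a replicate block, limma-voom on recovered reads and each library left out.

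The labels do not say whether libraries with the same replicate number were made together. Same-numbered libraries deviated together only in shCtrl CCS1477 against shCtrl DMSO, where their deviations correlated at 0.503, 0.297 and 0.246. Elsewhere these ran from −0.114 to 0.081. Positions are from GENCODE 44 and promoters from RefSeq (GRCh38.p14). Columns other than FPKM, and the study's ChIP-seq, tissue and animal data, were not used here.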

Additional observations from a re-analysis of the deposited data

Results flagged for a closer look

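For 5 results the effect of a treatment against p300 and CBP differed between shHOXB13 and shCtrl cells in the test of the difference itself (limma interaction term). Of all tested genes, 5.59% had a more negative effect of shp300/CBP in shHOXB13 cells and 2.53% a more positive one. For CCS1477 these shares were 2.45% and 6.71%. With shp300/CBP the difference was −1.33 on the log2 scale for *ACSL1* (adjusted p = 0.00588), −2.77 for *ACSL3* (adjusted p = 0.000153) and −2.03 for *ACSL6* (adjusted p = 0.00399). With CCS1477 it was −1.13 for *ACSL3* (adjusted p = 0.000561) and −1.20 for *ACSM1* (adjusted p = 0.0258). The *ACSM1* call was lost when any of several single libraries was left out (limma adjusted p 0.0503 to 0.0653). In *ACSL1* and *ACSL3* the shHOXB13 libraries were lower with shp300/CBP than without, and in *ACSL3* the shCtrl libraries were also higher with it (105 and 92.8 FPKM, against 55.8 and 52.0 FPKM without). In *ACSL6* the shCtrl libraries were higher with shp300/CBP (4.88 and 4.59 FPKM, against 0.670 and 0.967 FPKM without) and the shHOXB13 libraries had 4.34 and 3.29 FPKM with them, against 2.63 and 3.11 FPKM without. Groups of 2 or 3 libraries are too small for a test of single outlying libraries.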

How the results depend on the processing

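The number of members called depended on the setting as follows. The share of all genes called under each setting is not given beside these counts. A fit of only the groups compared also estimates the spread from fewer libraries. The counts are therefore not read as a result about the members. With only the groups compared in the fit it was 0 for shp300 (2 as reported), 0 for shCBP (2) and 0 for shp300/CBP (4) in shHOXB13 cells, and 0 for shp300 (2) and 0 for shCBP (3) in shCtrl cells. For shp300 in shHOXB13 cells it was 4 with size-factor scaling and 4 with limma-voom. For shCBP in shHOXB13 cells it was 1 with no filter and 0 with the replicate block. For shHOXB13+shp300 against shHOXB13+shCBP (0) it was 1 at a pseudocount of 1 and 1 with limma-voom. For shHOXB13 DMSO (8) it was 5 at a pseudocount of 1 and 5 with the filter at 1 FPKM, which tests fewer genes, and for shCtrl CCS1477 (5) it was 3 at a pseudocount of 1. Leaving out 1 library gave 0 to 2 for shp300 and 0 to 2 for shCBP in shHOXB13 cells, 0 to 1 for shp300 and 1 to 2 for shCBP in shCtrl cells, and 1 to 3 for the CCS1477 interaction. Where an arm then held 1 library, that library was assumed to vary like the other groups. Apart from what these settings construct, the cause was not tested.

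The replicate block also lost *ACSL1* (adjusted p = 0.0576) and *ACSL3* (adjusted p = 0.0571) with shCBP in shHOXB13 cells and *ACSM3* with shCBP in shCtrl cells (adjusted p = 0.0539), and added *ACSL5* with CCS1477 in shHOXB13 cells (adjusted p = 0.0481). It changed no other call. A fit of shCtrl CCS1477 and shCtrl DMSO alone with a replicate block, chosen after seeing the data, called 4. Of 1617 member values recomputed, none reversed a call, and 45 changed sign without being called in either setting. With 2 or 3 libraries of 1 line, and 0 to 28 reads for *ACSS1* and *ACSS3*, small differences in low genes were not detectable at this depth.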
